A study of Mus musculus with 16 samples.

Results

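The transcripts described are those of 35 genes of glycolysis and of the response to low oxygen, chosen by gene symbol from the 55414 Ensembl gene identifiers in each of 16 RNA-Seq libraries. All 35 symbols were matched, and all 35 passed the filter on low counts in every comparison. The cells were chondrocyte-enriched cultures from the epiphyses of mice 3 to 4 days old on a C57BL/6 background, obtained from heterozygous *Notch2tm1.1Ecan* mice and from control littermates, with male and female pups pooled. The *Notch2tm1.1Ecan* allele is a global knock-in of a stop codon in the last exon of *Notch2*, so that the NOTCH2 protein lacks its PEST domain and is degraded less readily. The gene counts do not separate this allele from the wildtype allele. Confluent cells of each genotype were kept for 6 h with vehicle or with 50 ng/ml of TNFα, and there were 4 libraries in each of the 4 groups. The sample annotation mentions serum-free medium for TNFα-exposed cells alone, whereas the paper's legend gives it for vehicle too, so that a difference between TNFα and vehicle may hold the loss of serum as well and the 2 cannot be told apart. The sample titles number the 4 libraries of a group as biological replicates, without saying whether these were separate litters or cultures. The p values then measure only the spread between these libraries.

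Totals on genes ran from 3439726 to 44237300 counts per library. In 1 control vehicle library, replicate 4, the summed level of 10 TNF response genes was 1316 CPM (counts scaled to a common library size, with TMM normalization), against 169.6 to 186.0 CPM in the other control vehicle libraries, and in control TNFα replicate 4 it was 6413 CPM against 7298 to 8018 CPM in the other control TNFα libraries. Both libraries carry the number 4, and a number of results are given with and without them. The others are given with them alone. All 14 chondrocyte markers were above the limit of 3 counts in every group, with a summed level of 52884 to 56100 CPM in control vehicle libraries. That sum was 32681 to 38669 CPM in *Notch2tm1.1Ecan* vehicle libraries, 36980 to 43831 CPM in control TNFα libraries and 20575 to 22885 CPM in *Notch2tm1.1Ecan* TNFα libraries. The summed level of 8 fibroblast and perichondrium markers was 32163 to 34936 CPM in control and 36528.5 to 39931 CPM in *Notch2tm1.1Ecan* vehicle libraries. With TNFα it was 30506 to 33473 CPM in control and 35030 to 41415 CPM in *Notch2tm1.1Ecan* libraries, in the latter above the chondrocyte sum. In these bulk cultures, fewer cells of a type and less RNA per cell cannot be told apart.

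Glycolysis splits glucose into pyruvate, which lactate dehydrogenase reduces to lactate when mitochondria do not take it up, and monocarboxylate transporters carry lactate out of the cell. Growth cartilage has no blood vessels, and chondrocytes rely on this route. The hypoxia-inducible factors HIF1α and HIF2α, encoded by *Hif1a* and *Epas1*, bind a short DNA core beside their partner ARNT and raise transcripts for glucose transport, glycolytic enzymes and pH control. In the presence of oxygen, the prolyl hydroxylases encoded by the Egln genes mark HIFα proteins for the VHL ubiquitin ligase. HIFα is therefore set largely at the protein level, which these counts do not measure.

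The HIF core sequences ACGTG and GCGTG were searched on both strands in the 250 bases before each annotated start (RefSeq, GRCm38.p6), and a CACGTG was counted once on each strand. Of the 35 genes, 32 had at least 1 start in the table, with 45 starts in all. Either core was present before 36 of these 45 starts, against 38.6% of the 32851 starts of all genes, and ACGTG was present before 20 of them, or 44.4% against 16.6%. The NF-κB decamer was searched on the strand of the gene alone, unlike the HIF cores. On that strand it was present before 0 of the 45 starts, against 5.00% of all starts, and matches on the other strand were not counted. A match is a description of the letters and does not show binding. The sequences below are those of 4 of the genes whose levels are given by library, 2 with large falls and 2 with the largest rises after TNFα, with both cores in capitals on either strand. For *Ldha* the first of 2 listed starts is shown. *Ldha* at chr7:46845554-46845803 on the plus strand and *Slc16a3* at chr11:120948817-120949066 on the plus strand fell, whereas *Slc2a6* at chr2:27027999-27028248 on the minus strand and *Egln3* at chr12:54203875-54204124 on the minus strand rose.
Ldha: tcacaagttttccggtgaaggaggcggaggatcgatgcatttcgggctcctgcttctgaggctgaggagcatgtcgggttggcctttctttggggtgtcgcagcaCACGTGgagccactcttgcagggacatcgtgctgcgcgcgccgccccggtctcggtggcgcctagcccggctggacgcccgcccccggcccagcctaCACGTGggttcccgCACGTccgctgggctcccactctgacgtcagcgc
Slc16a3: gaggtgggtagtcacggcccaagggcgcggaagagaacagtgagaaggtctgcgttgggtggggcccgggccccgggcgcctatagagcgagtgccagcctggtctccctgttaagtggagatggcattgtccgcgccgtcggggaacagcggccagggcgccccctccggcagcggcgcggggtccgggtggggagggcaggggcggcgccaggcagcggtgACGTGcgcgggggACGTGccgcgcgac
Slc2a6: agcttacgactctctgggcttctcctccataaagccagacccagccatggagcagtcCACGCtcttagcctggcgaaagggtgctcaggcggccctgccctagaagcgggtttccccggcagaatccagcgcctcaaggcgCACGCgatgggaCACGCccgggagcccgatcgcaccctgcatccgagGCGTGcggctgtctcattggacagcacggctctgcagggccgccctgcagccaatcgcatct
Egln3: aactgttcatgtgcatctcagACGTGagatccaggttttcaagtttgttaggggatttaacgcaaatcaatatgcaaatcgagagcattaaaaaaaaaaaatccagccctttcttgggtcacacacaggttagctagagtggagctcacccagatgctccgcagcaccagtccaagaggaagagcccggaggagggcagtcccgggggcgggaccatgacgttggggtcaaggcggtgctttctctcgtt

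Cores were thus present before the starts of genes that fell and of genes that rose. Before the start shown, *Ldha* held 5 matches of ACGTG, 4 of them from 2 CACGTG palindromes, and *Slc16a3* held 2, both close to the start. The other listed start of *Ldha* had 0 matches of ACGTG and 1 of GCGTG. *Slc2a6* held 4 matches of GCGTG and none of ACGTG, and *Egln3* held 1 match of ACGTG far from the start.

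Most transcripts of the glycolytic route were lower after TNFα in both genotypes, and a small set was higher. In control cells, 22 of the 35 genes were lower after TNFα, 7 were higher and 6 did not pass an adjusted p of 0.05 in edgeR's quasi-likelihood test. Among all 19338 genes tested in that comparison, 20.9% were lower and 23.3% were higher, or 44.2% in either direction. The median log2 fold change was -0.45 over the 35 genes and 0.04 over all genes tested. In *Notch2tm1.1Ecan* cells, 19 of the 35 were lower, 6 were higher and 10 did not pass, against 21.9% lower and 22.6% higher, or 44.5% in either direction, among 19633 genes, with medians of -0.36 and 0.03. The 2 comparisons share no library, and 18 of the 22 genes lower in control cells were among the 19 lower in *Notch2tm1.1Ecan* cells, while 6 of the 7 higher in control cells were the 6 higher in *Notch2tm1.1Ecan* cells. No gene was called in opposite directions. The 4 vehicle and 4 TNFα libraries did not overlap for 29 of the 35 genes in control cells, against 42.2% of all genes, and for 26 in *Notch2tm1.1Ecan* cells, against 40.9%. Without replicate 4 of both control groups, 23 genes were lower and 7 higher in control cells, the addition being *Car9*. Chondrocyte markers moved with this result, since 11 of 14 were lower after TNFα in each genotype, and their part in it was not tested.

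**Figure D1:**
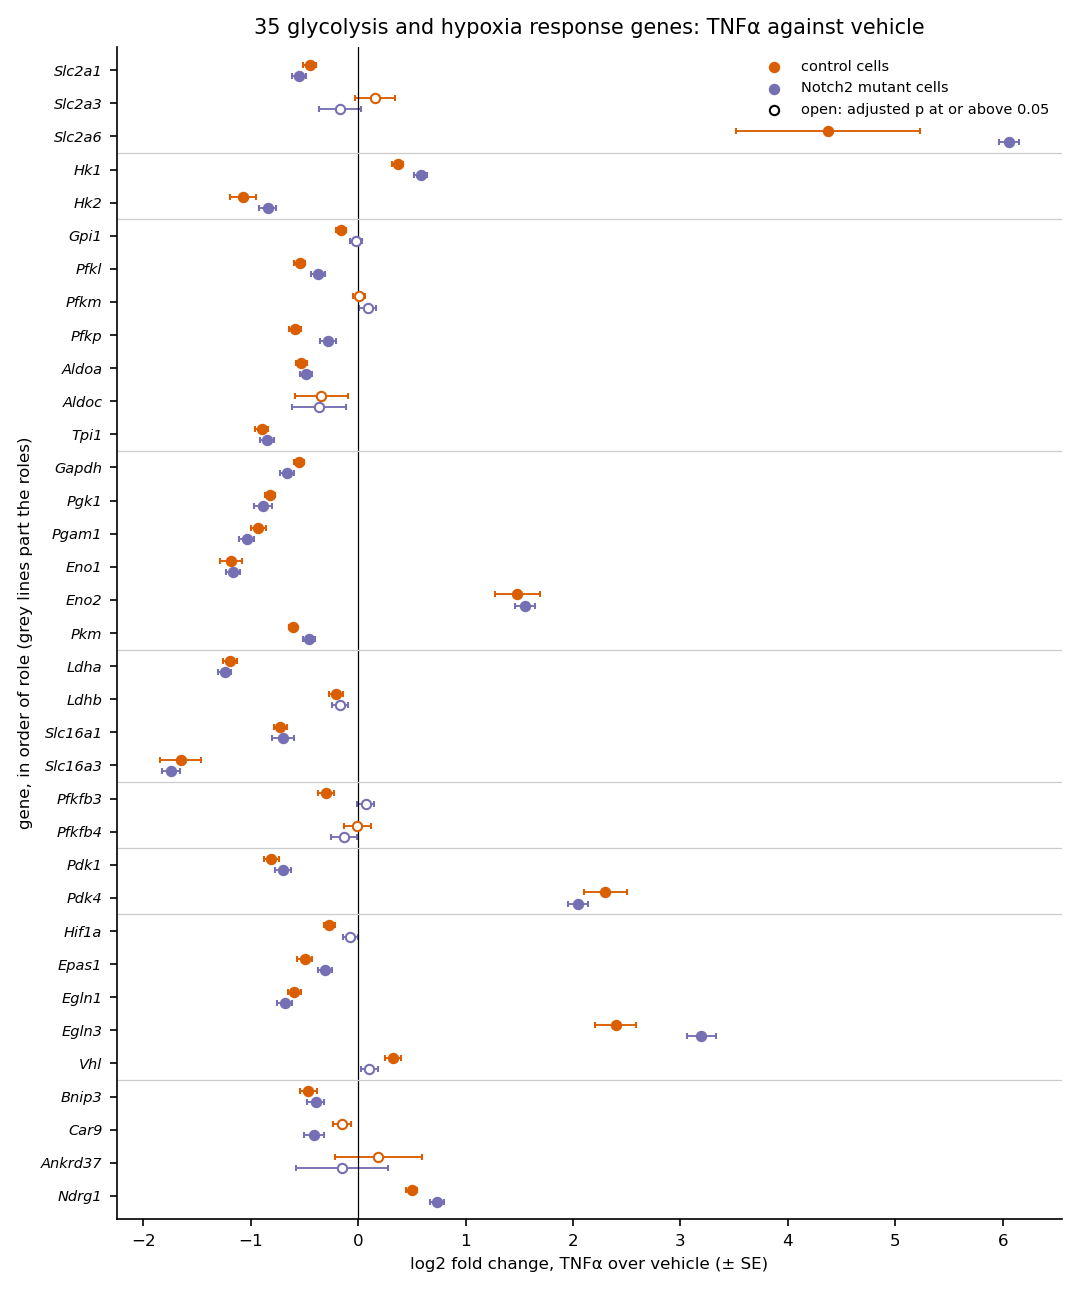
Log2 fold change of TNFα over vehicle with its SE for each of the 35 genes in control (orange) and *Notch2tm1.1Ecan* (purple) cells, with n = 4 libraries per group. Filled points passed an adjusted p of 0.05. Most points lie left of 0 in both genotypes, and *Slc2a6*, *Egln3*, *Pdk4* and *Eno2* lie far to the right.

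The summed level of the 17 enzymes from hexokinase to lactate dehydrogenase was 6837 ± 314 CPM (SD, n = 4) in control vehicle libraries and 4105 ± 210 CPM in control TNFα libraries. It was 6542 ± 426 CPM in *Notch2tm1.1Ecan* vehicle libraries and 4003 ± 110 CPM in *Notch2tm1.1Ecan* TNFα libraries. The vehicle libraries, at 6163 CPM or more, did not overlap the TNFα libraries, at 4400 CPM or less. This sum is carried by a few abundant transcripts. Per kilobase of exon, the highest levels in control vehicle cells were those of *Pgk1* at 196 ± 3.48 RPKM and *Ldha* at 186 ± 13.2 RPKM, followed by *Tpi1*, *Aldoa* and *Gapdh* between 139 and 149 RPKM, which differed by little more than their SDs of 5.24 to 10.4 RPKM. With the longest transcript as the length, *Ldha* was the highest of them at 279 RPKM. *Pgk1*, at 241 RPKM, was then below *Aldoa* and *Gapdh*, so that this order depends on the length used. The lowest were *Ankrd37* at 0.298 RPKM and *Slc2a3* at 0.392 RPKM.

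Glucose enters the cell through the facilitative transporters. *Slc2a1*, which encodes the widely expressed GLUT1, fell from 110.5 ± 7.07 to 78.4 ± 4.94 CPM in control cells, or -0.45 on the log2 scale (adjusted p = 1.00e-06), and by 0.55 on the log2 scale in *Notch2tm1.1Ecan* cells. *Slc2a3*, the high affinity GLUT3, was near 3 CPM in all groups and passed in neither genotype, with log2 fold changes of 0.15 and -0.17. *Slc2a6*, which encodes GLUT6, a transporter found mainly on intracellular membranes, had the largest rise of the 35 genes. Its level in replicates 1 to 4 was 1.62, 1.91, 1.96 and 24.3 CPM in control vehicle libraries and 156, 166, 168 and 124 CPM in control TNFα libraries. In *Notch2tm1.1Ecan* cells it was 2.83, 2.08, 2.15 and 2.09 CPM with vehicle and 147, 145, 140 and 142 CPM with TNFα. All 8 TNFα libraries were thus far above all vehicle libraries, and control vehicle replicate 4 was the single vehicle library above 3 CPM. The log2 fold change was 4.37 ± 0.85 (SE; adjusted p = 0.0062) in control cells and 6.06 ± 0.09 (adjusted p = 1.07e-26) in *Notch2tm1.1Ecan* cells. Without replicate 4 of both control groups the value in control cells was 6.52 ± 0.08 (adjusted p = 1.34e-29), a 92.0-fold rise in place of 20.7-fold. DESeq2 gave no adjusted p for *Slc2a6* in control cells.

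**Figure D2:**
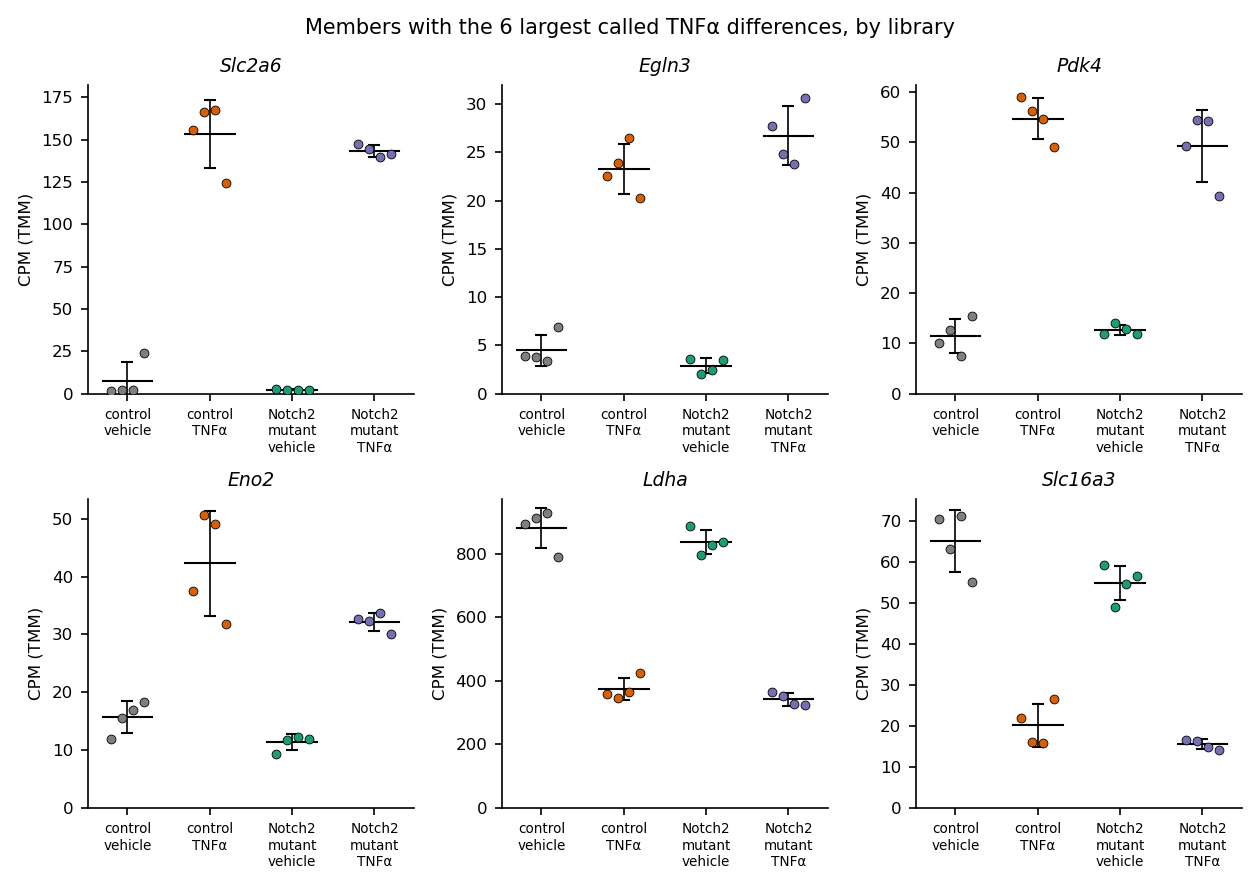
Level in CPM of *Slc2a6*, *Egln3*, *Pdk4*, *Eno2*, *Ldha* and *Slc16a3* in each library of the 4 groups. Points are libraries in the order of replicates 1 to 4, lines are means and bars are SDs, and a bar that would pass below 0 is clipped at the axis. TNFα libraries lie above all vehicle libraries of their genotype for the first 4 genes and below them for *Ldha* and *Slc16a3*, and control vehicle replicate 4 stands at 24.3 CPM for *Slc2a6*.

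Hexokinases trap glucose in the cell as glucose 6-phosphate. *Hk1* and *Hk2* moved in opposite directions. *Hk2*, the inducible form, fell from 42.5 ± 4.00 to 19.5 ± 3.69 CPM in control cells, or -1.07 ± 0.12 on the log2 scale (adjusted p = 2.42e-05), and from 38.2 ± 2.45 to 20.3 ± 1.02 CPM in *Notch2tm1.1Ecan* cells, or -0.84 ± 0.08 on the log2 scale (adjusted p = 1.11e-09). The *Hk2* value in control cells was -1.16 ± 0.08 (adjusted p = 3.17e-13) without replicate 4 of both control groups. *Hk1*, the constitutive form, rose from 123 ± 5.49 to 154 ± 5.49 CPM in control cells, or 0.37 on the log2 scale (adjusted p = 3.81e-06), and from 117 ± 8.99 to 170 ± 4.63 CPM in *Notch2tm1.1Ecan* cells, or 0.58 on the log2 scale (adjusted p = 1.11e-08).

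Of the 7 genes from glucose phosphate isomerase to triosephosphate isomerase, 5 fell in control cells and 4 in *Notch2tm1.1Ecan* cells, and none rose. *Tpi1*, which interconverts the triose phosphates, fell most among them, by 0.90 and 0.85 on the log2 scale. The liver and platelet type subunits of phosphofructokinase, the rate-setting enzyme, fell in both genotypes, *Pfkl* by 0.54 and 0.37 and *Pfkp* by 0.59 and 0.28 on the log2 scale. The muscle type subunit *Pfkm* passed in neither genotype, with log2 fold changes of 0.01 and 0.09. *Aldoa*, the main aldolase, fell by 0.53 and 0.48 on the log2 scale, whereas the brain type *Aldoc*, at 3.17 CPM or less in the group means, did not pass. *Gpi1* fell by 0.16 on the log2 scale in control cells (adjusted p = 0.0074), a call that was lost with library totals in place of TMM (-0.10, adjusted p = 0.11), and its value in *Notch2tm1.1Ecan* cells was -0.02.

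Of the 6 genes from *Gapdh* to pyruvate kinase, 5 fell and 1 rose in each genotype. *Eno1*, the ubiquitous enolase, fell to 0.441 and 0.447 of its vehicle level in control and *Notch2tm1.1Ecan* cells, from 1005 ± 72.0 to 430 ± 58.7 CPM in control cells. *Pgam1*, the phosphoglycerate mutase, fell by 0.93 and 1.03, *Pgk1*, which makes the first ATP of the route, by 0.82 and 0.89, *Pkm*, pyruvate kinase, by 0.60 and 0.46, and *Gapdh* by 0.55 and 0.66 on the log2 scale. *Gapdh* has 152 pseudogene copies that share its sequence at 90% identity or more and hold 11.7% of the combined counts. An opposite strand gene overlaps 41.7% of its exon bases, so its level is uncertain. Genes on the same strand overlap 43.1% of the exon bases of *Aldoa*, 23.5% of those of *Pkm* and 20.6% of those of *Pfkm*. Opposite strand genes overlap 39.8% of those of *Pfkl* and 27.5% of those of *Car9*. *Eno2*, the neuronal enolase, rose. Its level was 11.9, 15.5, 16.97 and 18.3 CPM in control vehicle libraries and 37.4, 50.7, 49.2 and 31.9 CPM in control TNFα libraries. With the *Notch2tm1.1Ecan* allele it was 9.35, 11.8, 12.3 and 11.9 CPM with vehicle and 32.6, 32.3, 33.6 and 30.1 CPM with TNFα. No TNFα library overlapped a vehicle library, and the log2 fold change was 1.48 ± 0.21 (adjusted p = 0.0010) in control and 1.55 ± 0.09 (adjusted p = 8.93e-14) in *Notch2tm1.1Ecan* cells.

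Among the transcripts for making and exporting lactate, *Ldha* and *Slc16a3* fell most. *Ldha* encodes the lactate dehydrogenase subunit that favors lactate formation. Its level was 894, 913, 927 and 789 CPM in control vehicle libraries and 358, 346, 365 and 426 CPM in control TNFα libraries. The level in *Notch2tm1.1Ecan* cells was 889, 796, 827 and 838 CPM with vehicle and 364, 352, 327 and 323 CPM with TNFα. The highest TNFα library was thus well below the lowest vehicle library, and the ratio of TNFα to vehicle was 0.437 (adjusted p = 6.08e-09) and 0.423 (adjusted p = 8.18e-16). *Ldhb*, the other subunit, fell by 0.20 on the log2 scale in control cells (adjusted p = 0.013), which was lost with library totals (adjusted p = 0.080), and its value in *Notch2tm1.1Ecan* cells was -0.16 (adjusted p = 0.071).

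*Slc16a3* encodes MCT4, the lactate exporter of glycolytic cells. Its level was 70.6, 63.3, 71.3 and 55.1 CPM in control vehicle libraries and 22.0, 16.03, 15.8 and 26.6 CPM in control TNFα libraries. In *Notch2tm1.1Ecan* cells it was 59.3, 49.2, 54.7 and 56.6 CPM with vehicle and 16.7, 16.4, 15.0 and 14.2 CPM with TNFα. Control replicate 4 was the lowest of the vehicle and the highest of the TNFα libraries, and the vehicle and TNFα libraries did not overlap in either genotype. The log2 fold change was -1.65 ± 0.19 (adjusted p = 0.00042) in control cells, -1.92 ± 0.10 without replicate 4 of both control groups, and -1.74 ± 0.08 (adjusted p = 4.87e-16) in *Notch2tm1.1Ecan* cells. A gene on the opposite strand, Csnk1d, overlaps 40.1% of the exon bases of *Slc16a3*, and the strand setting of the counting is not given in the sources used here. *Slc16a1*, which encodes MCT1, a carrier of lactate in either direction, fell by 0.72 and 0.70 on the log2 scale.

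*Pfkfb3* and *Pfkfb4* set the level of fructose 2,6-bisphosphate, an activator of phosphofructokinase. *Pfkfb3* fell by 0.30 on the log2 scale in control cells (adjusted p = 0.0026) and its value in *Notch2tm1.1Ecan* cells was 0.07, whereas *Pfkfb4* passed in neither. The pyruvate dehydrogenase kinases, which close the entry of pyruvate into mitochondria, moved in opposite directions. *Pdk4* was at 10.0, 12.8, 7.57 and 15.4 CPM in control vehicle libraries and at 59.0, 56.2, 54.7 and 49.2 CPM in control TNFα libraries. With the *Notch2tm1.1Ecan* allele it was at 12.0, 14.1, 12.8 and 12.0 CPM with vehicle and at 49.3, 54.4, 54.3 and 39.2 CPM with TNFα. All 8 TNFα libraries were above all vehicle libraries, with log2 fold changes of 2.30 ± 0.20 (adjusted p = 7.23e-05) and 2.05 ± 0.10 (adjusted p = 1.55e-15). The value in control cells was 2.53 ± 0.12 (adjusted p = 3.25e-10) without replicate 4 of both control groups. *Pdk1*, the HIF target among these kinases, fell from 52.6 ± 2.77 to 29.2 ± 3.05 CPM and from 42.9 ± 2.08 to 26.0 ± 1.86 CPM, by 0.81 and 0.70 on the log2 scale.

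Transcripts for the HIFα subunits were lower after TNFα or did not pass. *Hif1a* was at 306, 293, 304 and 319 CPM in control vehicle libraries and at 247, 248, 236 and 255 CPM in control TNFα libraries. The *Notch2tm1.1Ecan* libraries were at 242, 303, 304 and 309 CPM with vehicle and at 255, 267, 262 and 286 CPM with TNFα. In control cells the groups did not overlap and the log2 ratio was -0.27 ± 0.05 (adjusted p = 7.99e-05). In *Notch2tm1.1Ecan* cells it was -0.07 ± 0.07 (adjusted p = 0.45), with vehicle replicate 1 far below the other 3, and *Hif1a* passed when that library was left out. *Epas1* fell in both genotypes, by 0.50 (adjusted p = 3.06e-06) and 0.31 (adjusted p = 0.00042) on the log2 scale. Its level went from 58.6, 60.6, 60.7 and 59.6 to 38.6, 40.5, 37.3 and 48.0 CPM in control libraries and from 75.7, 66.4, 66.0 and 71.6 to 55.5, 51.8, 53.2 and 59.0 CPM in *Notch2tm1.1Ecan* libraries.

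The prolyl hydroxylases also split. *Egln1*, which encodes PHD2, the main oxygen sensor of the pathway, fell by 0.59 and 0.68 on the log2 scale. *Egln3*, which encodes PHD3, was at 3.95, 3.82, 3.39 and 6.92 CPM in control vehicle libraries and at 22.5, 24.0, 26.5 and 20.3 CPM in control TNFα libraries. In *Notch2tm1.1Ecan* cells it was at 3.61, 2.02, 2.46 and 3.52 CPM with vehicle and at 27.7, 24.8, 23.8 and 30.6 CPM with TNFα. Every TNFα library was above every vehicle library. The log2 fold change was 2.40 ± 0.19 (adjusted p = 1.49e-06) in control cells, 2.74 ± 0.12 without replicate 4 of both control groups, and 3.19 ± 0.14 (adjusted p = 1.42e-16) in *Notch2tm1.1Ecan* cells. *Vhl*, which marks hydroxylated HIFα for destruction, rose by 0.32 on the log2 scale in control cells (adjusted p = 0.00095), with a value of 0.11 in *Notch2tm1.1Ecan* cells.

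The remaining hypoxia response genes did not move together. *Bnip3*, a mitophagy receptor, fell by 0.46 and 0.39 on the log2 scale. *Ndrg1*, a stress response gene induced by low oxygen, rose from 127 ± 5.15 to 175 ± 8.16 CPM in control cells and from 103 ± 4.99 to 165 ± 6.53 CPM in *Notch2tm1.1Ecan* cells, with log2 fold changes of 0.50 (adjusted p = 4.75e-08) and 0.73 (adjusted p = 1.11e-10). *Car9*, a cell surface carbonic anhydrase, fell by 0.41 on the log2 scale in *Notch2tm1.1Ecan* cells (adjusted p = 0.00063). In control cells its value was -0.15 (adjusted p = 0.17), and -0.28 (adjusted p = 0.0066) without replicate 4 of both control groups. *Ankrd37* was at 0.559 to 0.623 CPM in the 4 groups, with 164 counts in all libraries together, and an opposite strand gene overlaps 61.7% of its exon bases. Its log2 fold change after TNFα was -0.15 ± 0.43 in *Notch2tm1.1Ecan* cells. In control cells without replicate 4 of both groups it was 0.16 ± 0.48. With SEs of this size, a small change in it was not detectable at this depth.

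Within families, the same shifts were read as the share of a member in the summed level per kilobase of exon. *Slc2a6* held 66.8% ± 4.35 (SD, n = 4) of the summed level of *Slc2a1*, *Slc2a3* and *Slc2a6* in control TNFα libraries and 67.1% ± 1.54 in *Notch2tm1.1Ecan* TNFα libraries, against 1.51 to 20.2% and 1.94 to 2.44% with vehicle. *Hk1* went from 73.3% ± 1.20 to 88.2% ± 2.31 of both hexokinases in control cells and from 74.3% ± 1.33 to 88.7% ± 0.694 in *Notch2tm1.1Ecan* cells. *Eno2* went from 2.89% ± 0.641 to 15.9% ± 4.01 of both enolases in control cells and from 2.15% ± 0.393 to 12.5% ± 0.807 in *Notch2tm1.1Ecan* cells, so that *Eno1* still held most of the enolase transcripts. The share of *Ldhb* rose from 4.81% ± 0.568 to 9.10% ± 0.506 in control cells, although *Ldhb* itself was lower. *Pdk4* went from 33.1% ± 6.71 to 81.3% ± 2.66 of *Pdk1* and *Pdk4* in control cells, and *Egln3* from 17.7% ± 5.43 to 63.5% ± 4.34 of *Egln1* and *Egln3*. In *Notch2tm1.1Ecan* cells these shares went from 40.7% ± 2.79 to 81.2% ± 3.48 and from 11.7% ± 2.63 to 67.3% ± 2.48. With the longest transcript as the length, the share of *Egln3* with TNFα was 53.2% in control and 57.3% in *Notch2tm1.1Ecan* cells, and that of *Pdk4* was 72.8% in both. The other shares also moved with the length. In control TNFα libraries they were then 72.1% for *Slc2a6*, 93.3% for *Hk1*, 11.1% for *Eno2* and 10.2% for *Ldhb*. *Hk1* was then at 83.7% in control vehicle libraries.

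**Figure D3:**
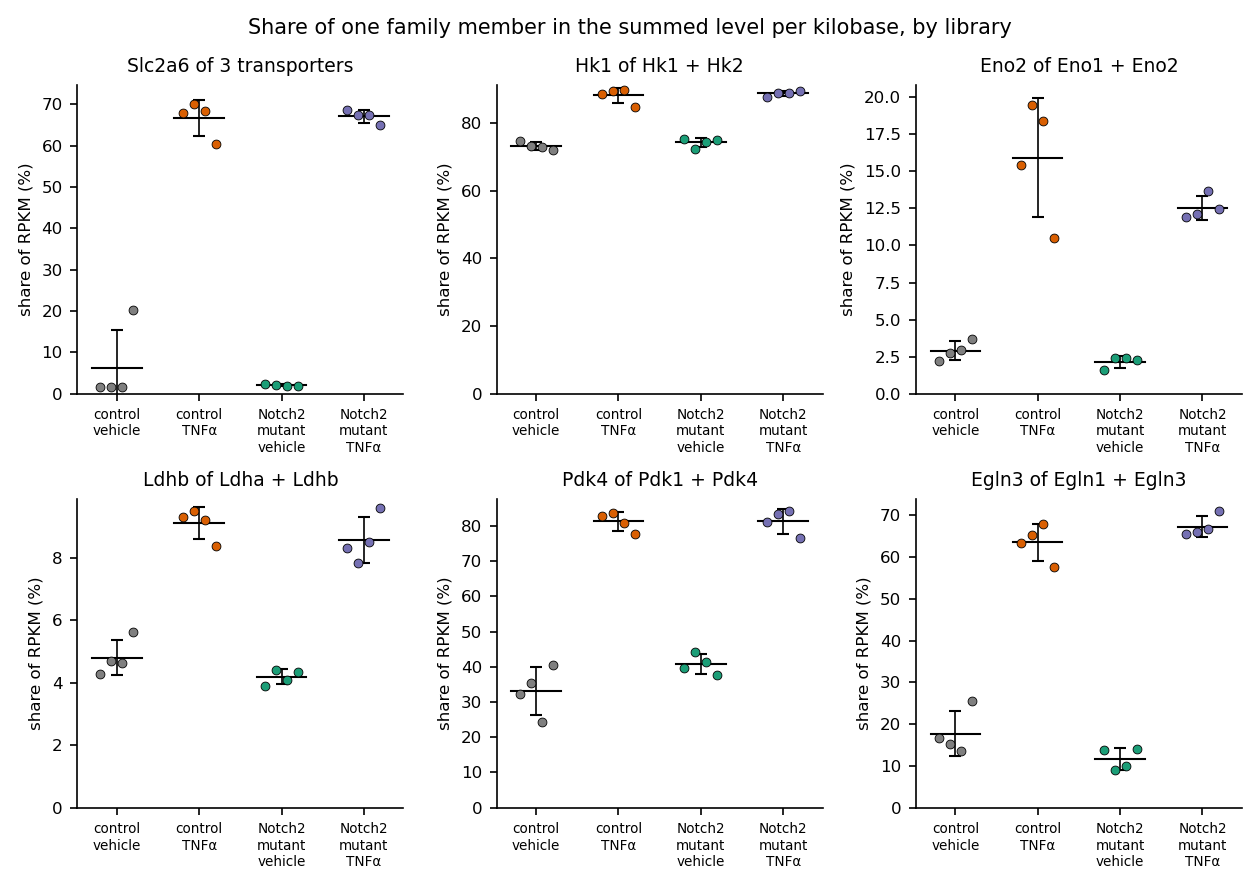
Share of a family member in the summed RPKM of the members named in each panel title, in percent, for each library. Points are libraries in the order of replicates 1 to 4, lines are means and bars are SDs, clipped at 0. In each of the 6 panels the TNFα libraries lie above the vehicle libraries in both genotypes.

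Genes of the same pathways outside the 35 were counted in the same fits, to be read beside the 20.9% lower and 23.3% higher of all genes in control cells and the 21.9% and 22.6% in *Notch2tm1.1Ecan* cells. Of 25 other hypoxia-inducible genes, 12 were lower and 6 higher after TNFα in control cells, and 13 and 8 in *Notch2tm1.1Ecan* cells. *Angptl4*, a secreted inhibitor of lipoprotein lipase, rose by log2 fold changes of 3.65 ± 0.62 and 4.20 ± 0.07, whereas *Tfrc*, the transferrin receptor, fell by 1.68 and 1.89 on the log2 scale. Of 11 genes for the entry of pyruvate into mitochondria, 6 were lower and 2 higher in each genotype, and *Pdk2*, another pyruvate dehydrogenase kinase, rose by log2 fold changes of 0.99 and 1.13. Of 9 pentose phosphate pathway genes, 3 were lower and 1 higher in each genotype, a share called that was close to that of all genes. The gene that rose was *Pgd*, which makes NADPH, with log2 fold changes of 0.57 and 0.90. Of 13 other components of the HIF pathway, 3 were lower and 1 higher in control cells and 6 and 2 in *Notch2tm1.1Ecan* cells. Of the other glycolytic isoenzymes and glucose transporters, 7 were lower and 3 higher of 18 tested in control cells, and 8 and 3 of 17 in *Notch2tm1.1Ecan* cells. The muscle forms *Pgam2* (-2.33 and -1.56) and *Eno3* (-0.83 and -1.07) were among those that fell. In the same cultures, 3 and 2 of 11 skeletal muscle markers were lower, a share close to that of all genes, and their summed level was 25.2 to 31.7 CPM with vehicle and 9.05 to 22.0 CPM with TNFα in control cells.

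The *Notch2tm1.1Ecan* allele was accompanied by small differences that, apart from *Epas1*, were all decreases. With vehicle, 8 of the 35 genes were lower in *Notch2tm1.1Ecan* than in control cells, 1 was higher and 26 did not pass, against 4.35% lower and 6.19% higher, or 10.5% in either direction, among 19432 genes tested. The median log2 fold change was -0.11 over the 35 genes and -0.002 over all genes tested. The groups did not overlap for 8 of the 35 genes, against 16.1% of all genes. None of the 9 differences reached 2-fold, which 1.26% of all genes did. The 8 lower genes were *Bnip3*, *Ndrg1*, *Pdk1*, *Ldhb*, *Car9*, *Eno2*, *Slc16a1* and *Slc16a3*. Without replicate 4 of both control groups 11 genes were lower, and without *Notch2tm1.1Ecan* vehicle replicate 1 it was 15, whereas without control vehicle replicate 1, 2 or 3 it was 5, 4 and 4. *Bnip3*, *Ndrg1*, *Pdk1* and *Ldhb* were lower whichever library was left out.

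**Figure D4:**
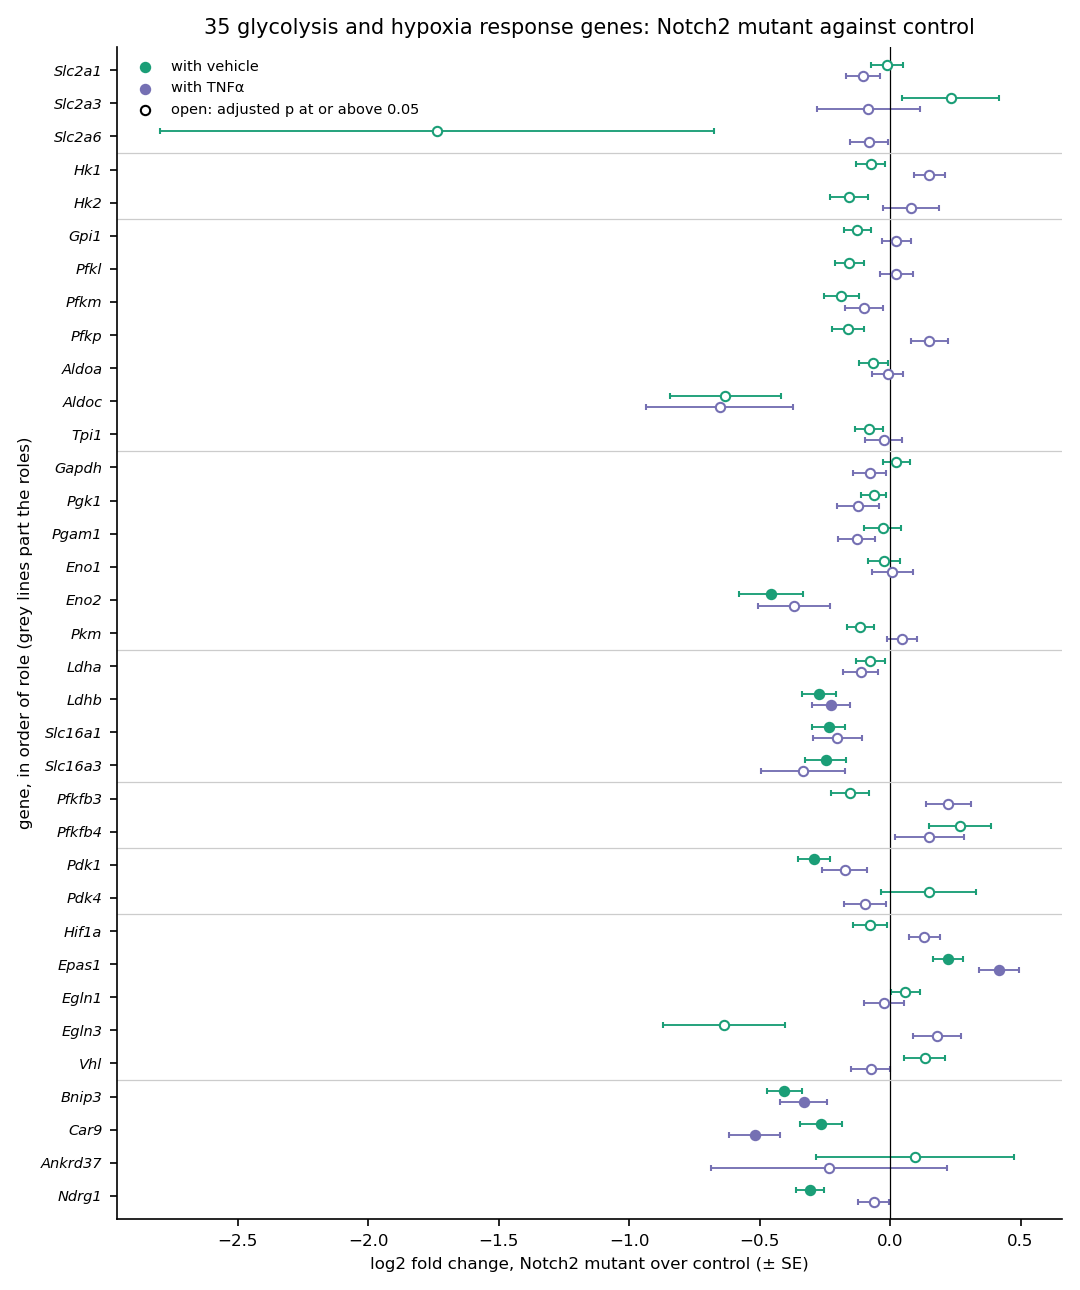
Log2 fold change of *Notch2tm1.1Ecan* over control with its SE for each of the 35 genes with vehicle (green) and with TNFα (purple), with n = 4 libraries per group. Filled points passed an adjusted p of 0.05. Nearly all points lie between -0.7 and 0.5, and *Slc2a6* with vehicle has the widest bar, with control vehicle replicate 4 at 24.3 CPM.

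*Bnip3* was at 48.6, 44.4, 43.5 and 48.6 CPM in control and at 33.0, 35.5, 37.8 and 33.8 CPM in *Notch2tm1.1Ecan* vehicle libraries. The groups did not overlap, with a log2 ratio of -0.40 ± 0.07 (adjusted p = 0.00015). *Ndrg1* was at 122, 124, 133 and 130 CPM in control and at 104, 96.7, 104 and 109 CPM in *Notch2tm1.1Ecan* vehicle libraries, again without overlap (-0.31 ± 0.05, adjusted p = 0.00027). *Pdk1* was at 48.7, 54.4, 54.7 and 52.8 CPM against 42.3, 41.1, 42.3 and 45.9 CPM (-0.29 ± 0.06, adjusted p = 0.0020). *Ldhb* was at 37.9, 42.8, 42.7 and 44.5 CPM against 34.3, 34.9, 33.5 and 36.2 CPM (-0.27 ± 0.07, adjusted p = 0.0072). In these 4 genes each *Notch2tm1.1Ecan* library was below each control library. *Car9* was at 26.6, 26.7, 25.6 and 23.2 CPM against 22.5, 20.8, 18.9 and 22.9 CPM, where the groups nearly touched (-0.26 ± 0.08, adjusted p = 0.036), and it did not pass when any of 5 libraries (control vehicle replicates 1, 2 and 3, *Notch2tm1.1Ecan* vehicle replicates 2 and 3) was left out.

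Of the lactate genes, *Slc16a1* (-0.24, adjusted p = 0.017) and *Slc16a3* (-0.25, adjusted p = 0.047) had overlapping groups, and each lost its call in several of 16 refits with other settings or libraries, *Slc16a3* in 9. *Eno2* was lower by 0.46 on the log2 scale (adjusted p = 0.019) and was not called without replicate 4 of both control groups (adjusted p = 0.059). *Ldha*, *Slc2a1* and the abundant enzymes from *Aldoa* to *Pkm* did not pass, with log2 fold changes between -0.11 and 0.02. Without replicate 4 of both control groups, *Pkm* (-0.15, adjusted p = 0.043), *Ldha* (-0.14, adjusted p = 0.049), *Pfkl* (-0.19, adjusted p = 0.020) and *Gpi1* (-0.16, adjusted p = 0.034) were called lower, and without *Notch2tm1.1Ecan* vehicle replicate 1 the calls gained included *Pkm* and *Tpi1*. *Epas1* was the gene that was higher, at the levels given above, by 0.22 ± 0.06 on the log2 scale (adjusted p = 0.013). Its lowest *Notch2tm1.1Ecan* vehicle library, at 66.0 CPM, was above its highest control vehicle library, at 60.7 CPM, and it did not pass without control vehicle replicate 1 or *Notch2tm1.1Ecan* vehicle replicate 4 (adjusted p up to 0.063). *Hif1a* overlapped between genotypes (-0.08, adjusted p = 0.57).

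With TNFα, 3 of the 35 genes were lower in *Notch2tm1.1Ecan* than in control cells, 1 was higher and 31 did not pass, against 4.31% lower and 5.63% higher, or 9.94% in either direction, among 19227 genes tested. None of the 4 reached 2-fold, against 1.41% of all genes. The medians were -0.08 over the 35 genes and -0.01 over all genes, and the groups did not overlap for 7 of the 35 genes, against 15.3% of all genes. The 4 genes were *Car9*, *Bnip3*, *Ldhb* and *Epas1*, and each had passed in the same direction with vehicle, in libraries that this comparison does not share. *Car9* was at 19.8, 20.8, 22.8 and 25.8 CPM in control and at 14.1, 15.8, 16.2 and 15.9 CPM in *Notch2tm1.1Ecan* TNFα libraries (-0.52 ± 0.10, adjusted p = 0.00049). *Epas1* was higher in each *Notch2tm1.1Ecan* library than in each control library (0.42 ± 0.08, adjusted p = 0.00041). For both genes the call held in all 16 refits with other settings or libraries.

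*Bnip3* was at 30.8, 27.9, 35.2 and 36.5 CPM in control and at 25.3, 26.8, 23.8 and 27.8 CPM in *Notch2tm1.1Ecan* TNFα libraries, a small gap between the groups (-0.33 ± 0.09, adjusted p = 0.013). *Ldhb* was at 34.9, 34.5, 35.2 and 36.9 CPM against 31.3, 28.4, 28.9 and 32.6 CPM (-0.23 ± 0.07). Its adjusted p of 0.0495 lay at the threshold, and it did not pass in 13 of those 16 refits. *Pdk1* was at 28.2, 25.5, 30.1 and 32.8 CPM against 26.8, 25.1, 23.9 and 28.1 CPM, and *Ndrg1* at 178, 179, 180 and 163 CPM against 167, 169, 169 and 156 CPM. Both overlapped between the genotypes and did not pass (adjusted p = 0.25 and 0.61). Without replicate 4 of both control groups, *Eno2* was lower by 0.50 on the log2 scale (adjusted p = 0.00020), *Slc2a6* lower by 0.18 (adjusted p = 0.037) and *Pfkfb3* higher by 0.28 (adjusted p = 0.028).

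**Figure D5:**
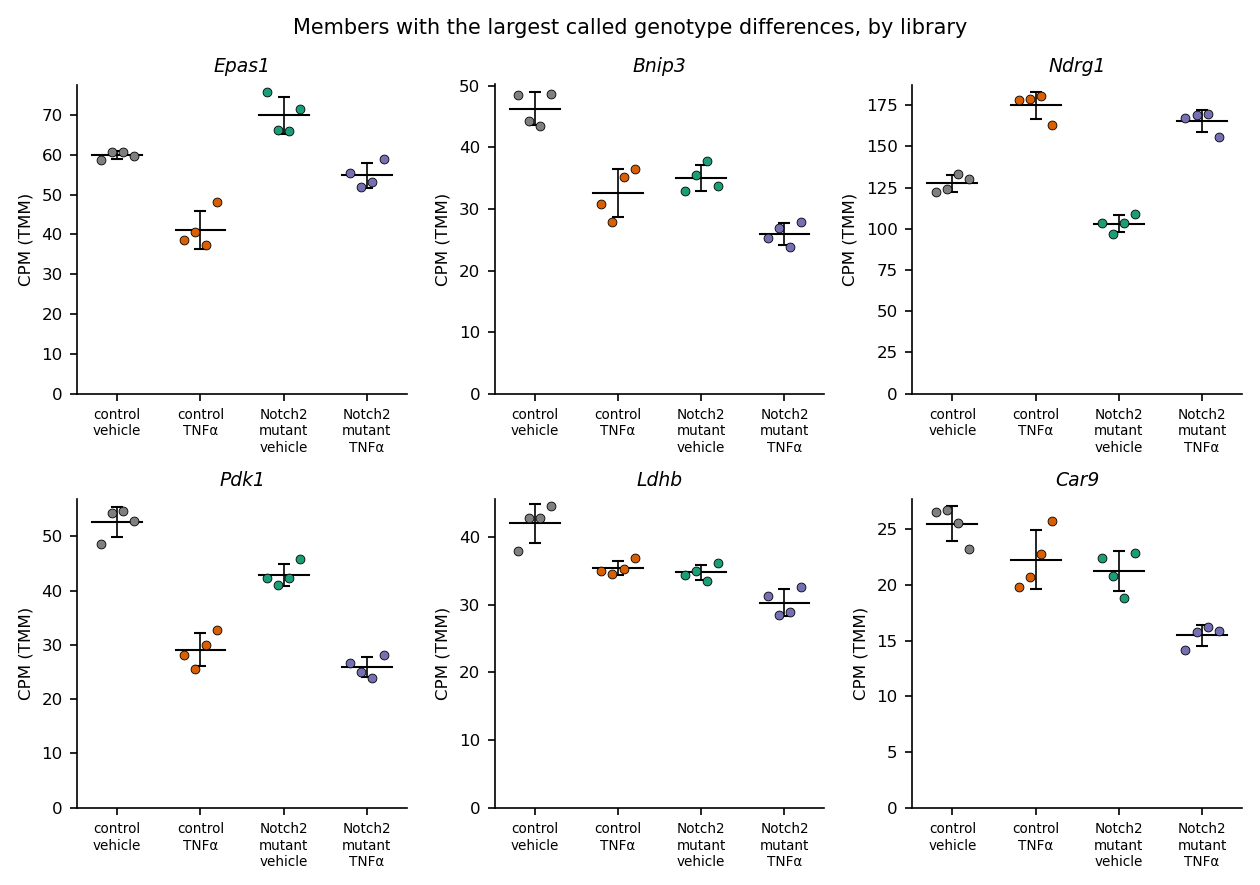
Level in CPM of *Epas1*, *Bnip3*, *Ndrg1*, *Pdk1*, *Ldhb* and *Car9* in each library of the 4 groups. Points are libraries in the order of replicates 1 to 4, lines are means and bars are SDs. *Epas1* is higher and *Bnip3* lower in *Notch2tm1.1Ecan* than in control cells under either treatment.

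Of 25 other hypoxia-inducible genes, 10 were lower and 2 higher in *Notch2tm1.1Ecan* cells with vehicle, where 4.35% of all genes were lower and 6.19% higher, and 5 were lower and 0 higher with TNFα, where 4.31% and 5.63% were. *Stc2*, a secreted glycoprotein, was lower by 0.62 and 0.73 on the log2 scale, and *Ero1a* and *P4ha1*, which serve disulfide formation and collagen hydroxylation, were lower with TNFα by 0.34 and 0.32. *Hk3*, a hexokinase of blood cells, was higher by 1.34 with vehicle and 1.32 with TNFα, at 1.70 to 4.86 CPM in the group means. Of the 11 genes for the entry of pyruvate into mitochondria none passed with vehicle and *Pdp1* was higher with TNFα, and of 9 pentose phosphate pathway genes none passed with vehicle, while *Pgd* (0.29) and *G6pdx* (0.20) were higher with TNFα. Of 13 other HIF pathway components, *Elob* was higher with vehicle (0.19) and *Cited2* lower with TNFα (-0.22). In the same comparisons all 14 chondrocyte markers were lower in *Notch2tm1.1Ecan* cells under either treatment, and 12 of 14 macrophage markers with vehicle and 12 of 13 with TNFα were higher. Summed macrophage markers were at 79.9 to 86.9 CPM in control and 153 to 182 CPM in *Notch2tm1.1Ecan* vehicle libraries, with *Cd163* at 0 in control vehicle cells, and at 90.9 to 108 CPM and 190 to 218 CPM with TNFα. Summed endothelial markers were at 8.86 to 10.9 CPM and 19.4 to 23.4 CPM with vehicle. Of 11 skeletal muscle markers 6 were higher with vehicle, 3 were higher with TNFα and none was lower, and their sum with vehicle was 25.2 to 31.7 CPM in control and 44.8 to 50.6 CPM in *Notch2tm1.1Ecan* libraries. Of 8 fibroblast and perichondrium markers, 4 were higher and 2 lower with vehicle, and 5 were higher and 1 lower with TNFα. The part of these cell populations in the differences between genotypes was not tested.

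Whether TNFα acted differently in the genotypes was tested as an interaction over all 16 libraries. None of the 35 genes passed in edgeR's test, where 0.474% of 21321 genes did, 0.267% with a higher and 0.206% with a lower value. At an unadjusted p under 0.05 there were 8 of the 35 genes, against 8.71% of all genes tested, namely *Ndrg1*, *Pfkl*, *Hif1a*, *Pfkp*, *Pfkfb3*, *Pkm*, *Egln3* and *Hk1*, and in each of them the value was positive, that is, the TNFα effect was less negative or more positive in *Notch2tm1.1Ecan* cells. Without replicate 4 of both control groups there were 14 such genes, against 8.38% of 20955 genes, with 12 positive values and with negative values for *Slc2a6* and for *Pdk4* (-0.47 ± 0.17), and none passed after adjustment. Of those 14 values, that of *Pdk4* was the largest in size. Among the 8 genes of the fit to all 16 libraries the largest value was that of *Egln3*. Its log2 difference was 0.80 ± 0.25 (adjusted p = 0.25), and 0.45 without replicate 4 of both control groups. *Ndrg1* differed by 0.24 ± 0.08 (adjusted p = 0.26), and DESeq2 called these 2 genes. *Pfkfb3* differed by 0.38 ± 0.11 (adjusted p = 0.16) and *Pfkp* by 0.31 ± 0.09 (adjusted p = 0.17), and both passed without *Notch2tm1.1Ecan* vehicle replicate 1. The difference for *Slc2a6*, 1.69 ± 0.92 (adjusted p = 0.67), rested on control vehicle replicate 4 and was -0.46 ± 0.17 (adjusted p = 0.38) without replicate 4 of both control groups. The interaction values of *Ldha*, *Eno1* and *Slc16a3* were -0.04 ± 0.09, 0.02 ± 0.12 and -0.09 ± 0.21, and 0.08 ± 0.08, 0.18 ± 0.08 and 0.17 ± 0.13 without replicate 4 of both control groups, and none passed in either fit.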

How the data were processed

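Stranded mRNA libraries were sequenced as paired ends in 1 pool. The authors deposited 1 file per library of raw counts by Ensembl gene, made with HTSeq. The paper names mapping to GRCm39, whereas the submitters' processing notes name GRCm38 and HISAT2 2.1.0, and the strand setting of the counting is not given in the sources used here. The 5 entries that name no gene held 8.81 to 12.1% of a library and were left out. Symbols came from GENCODE M39.

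Counts were analyzed with edgeR 4.0.16 in R 4.3.3 (TMM normalization, at least 10 counts summed over the libraries compared, robust dispersions, quasi-likelihood test, Benjamini-Hochberg adjustment over all genes tested). Each 2-group comparison used its 8 libraries and the interaction all 16. A gene was called at an adjusted p under 0.05, with no fold limit. CPM used TMM over 16 libraries, and RPKM the union of exons. A gene at 3 counts or fewer in every library of a group was taken as below detection, which covers counting error only. The fits were tested on simulated counts with known fold changes. The simulation gave all genes the same dispersion and held no deviant library, so it does not cover the libraries that stood apart here.

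Levels were given by library for *Hif1a*, *Epas1* and, in each 2-group comparison, for up to 6 genes with the largest called differences and no overlap between groups. Other values, such as those of *Eno1* and *Hk2*, were given as means or fold changes. Of each pathway list, up to 3 called genes were named, and 1 gene counted in a list is not reported here by name. The 35 genes, the lists and the tests were chosen with earlier results of these data known. Alternatives were DESeq2 1.42.0, RLE, library totals, other filters and thresholds, a fit to 16 libraries, a replicate block and each library left out in turn. The comparisons of TNFα share no library with each other, but each shares its libraries with the comparisons of genotype.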

Additional observations from a re-analysis of the deposited data

Results flagged for a closer look

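A library stood apart from the other 3 of its group, by a gap large against the group's range, in 13 of the 140 sets of 4 libraries (35 genes in 4 groups). Chance flags about 1 in 20 such sets. Of the 13, 3 fell on control vehicle replicate 4 and 2 on control TNFα replicate 4. In control vehicle replicate 4, *Slc2a6* was at 24.3 CPM against 1.62 to 1.96 CPM in the others, *Egln3* at 6.92 CPM against 3.39 to 3.95 CPM, and *Gpi1* at 269.8 CPM against 287 to 289 CPM. In the same library the summed TNF response genes were at 1316 CPM. In control TNFα replicate 4, *Pkm* was at 923 CPM against 858 to 865 CPM and *Ndrg1* at 163 CPM against 178 to 180 CPM.

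In *Notch2tm1.1Ecan* vehicle replicate 1, *Slc2a6* was at 2.83 CPM against 2.08 to 2.15 CPM, *Pgam1* at 199.9 CPM against 164 to 169.7 CPM, *Pfkfb3* at 33.9 CPM against 28.4 to 29.1 CPM and *Hif1a* at 242 CPM against 303 to 309 CPM. In *Notch2tm1.1Ecan* TNFα replicate 4, the library with the lowest total, *Slc2a1* was at 79.6 CPM against 70.0 to 71.7 CPM, *Slc16a1* at 20.3 CPM against 32.6 to 34.5 CPM and *Ndrg1* at 156 CPM against 167 to 169 CPM. In *Notch2tm1.1Ecan* TNFα replicate 3, *Pfkl* was at 94.1 CPM against 105.3 to 106.9 CPM.

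Among the genes of the pathway lists, the effect of TNFα differed between the genotypes for *Pdp1*, a phosphatase that activates pyruvate dehydrogenase, with an interaction of 0.51 on the log2 scale (adjusted p = 0.0097). *Pdp1* went from 50.4 ± 1.42 to 37.0 ± 2.23 CPM (SD, n = 4) in control cells and from 45.8 ± 4.83 to 48.2 ± 3.49 CPM in *Notch2tm1.1Ecan* cells.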

How the results depend on the processing

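No called gene changed its direction in any alternative. For TNFα, all 29 calls in control cells and all 25 in *Notch2tm1.1Ecan* cells stayed when any library was left out. A limit of 2-fold left 4 higher and 4 lower genes in control cells, 4 higher and 4 lower genes in *Notch2tm1.1Ecan* cells, and 0 between genotypes in either direction. Between genotypes with vehicle, the count of lower genes was 5 in a fit to all 16 libraries and ran from 4 to 15 when a library was left out, while the count of higher genes ran from 0 to 1. With TNFα, the count of higher genes was 2 without replicate 4 of both control groups and ran from 1 to 2 when a library was left out, and that of lower genes ran from 1 (without *Notch2tm1.1Ecan* TNFα replicate 3) to 4 (without control TNFα replicate 4). For the interaction, the count of higher genes was 2 with DESeq2 (*Egln3* and *Ndrg1*), 1 with no filter beyond 1 count (*Egln3*) and ran from 0 to 2 when a library was left out. The causes of these changes were not tested. With the replicate number as a block, the counts of genes called were 29 and 25 for TNFα, 10 and 4 between genotypes and 0 for the interaction. The labels do not say whether the numbers pair the samples. Over all genes with at least 10 counts, the deviations of libraries with the same number were uncorrelated (r from -0.051 to 0.041). Genes with few counts weigh as much as others in this check, so it cannot exclude a pairing. Library totals in place of TMM changed mean CPM by factors of 0.958 to 1.04. RPKM was up to 2.69 times higher with the longest transcript as the length. Low levels limit *Ankrd37*, *Slc2a3* and *Aldoc*.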
